A study of Rattus norvegicus with 6 samples.

Results

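The T cells described here were 260 of the 34039 barcodes with at least 1000 unique molecular identifiers (UMIs, tags that mark captured transcripts) in 6 single-cell libraries of rat cerebral hemisphere. They were chosen by transcripts detected in each barcode, and a barcode was counted as a T cell where at least 2 of Cd3e, Cd3d and Cd3g, the invariant chains of the T cell receptor complex, were detected. At most 1 of the microglial genes P2ry12, Tmem119, Gpr34 and P2ry13 and at most 1 of Cldn5, Flt1, Vtn, Aqp4 and Mog, which mark vessel cells, astrocytes and oligodendrocytes, was allowed. The levels of these genes were fixed by that choice and are given only as a description. A further condition, no UMI of the B cell gene Cd79a, was not applied here. Its partner chain Cd79b was detected in 2 of the 180 T cells of the control group (NC) and in 0 of the 80 of the carbon monoxide group (CO). The study compared rats labelled as negative controls with rats in acute carbon monoxide poisoning. CO rats breathed 1000 ppm of the gas over 40 minutes and 3000 ppm over a further 20 minutes, and poisoning was accepted with impaired consciousness and carboxyhemoglobin above 60%. Each group has 3 libraries of fresh tissue dissociated with trypsin and DNase, and the design text speaks of 3 rats per group. Strain, age and the delay between exposure and sampling are not given in the sources used here.

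T cells carry a clonal receptor whose Cd3 chains recruit the kinases Lck and Zap70, and these phosphorylate the adaptor Lat, the platform on which downstream signalling is assembled. Signals from the receptor, cytokines and stress all reach a common set of rapidly transcribed genes (the immediate early genes) and the NF-kB transcription factors. In a healthy brain T cells are rare, and most sit in meninges, choroid plexus and perivascular spaces or circulate in blood left in the vessels. A dissociated hemisphere therefore holds T cells from any of these places, which these libraries do not tell apart.

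Averaged over genes, libraries of a group differed about as much as parts of 1 pool of cells would. The mean square between libraries over that within libraries was 1.02 among all NC barcodes, 1.09 among all CO barcodes, 0.953 among NC T cells and 1.16 among CO T cells, where parts of 1 pool give about 1. Each group is therefore counted as 1 sample, no p-value is given, and a difference between the groups cannot be told apart from a difference between pools. Library totals ran from 39494470 to 47322264 UMIs, and the T cells of a group held 1279886 (NC) and 556139 (CO) UMIs in sum. The depth of T cells was close in both groups, with a median of 5858.5 UMIs in NC and 5960.5 in CO. In every library entries of 2 UMIs were unusually frequent and entries of 4 outnumbered entries of 3 (7.59% to 7.66% against 7.32% to 7.41% of entries), so molecules appear to have been counted in pairs. Intervals of gene ratios were therefore computed from counts divided by 2.96, the ratio of the mean square of counts to their mean in T cells. The 95% intervals given here reflect counting error, and those of gene ratios also an average spread of counts over T cells. They hold no spread between rats or pools. Signed values are log2 ratios of CPM (counts scaled to library sizes corrected by TMM factors), CO over NC, with their interval in brackets.

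Markers that the rule did not use were present but are shared with NK cells in part. Skap1, an adaptor of T cells, stood at 1152 CPM in NC and 1336 CPM in CO, beside 368 CPM in NK cells of NC. Lck stood at 235 and 157 CPM, beside 274 CPM in NK cells of NC, so it does not set T cells apart from them. All 3 Cd3 chains were detected in 39, 44 and 49 NC T cells and in 24, 16 and 18 CO T cells. The lowest UMI count of a T cell was 3114 in NC and 2291 in CO, and no barcode with at least 500 but fewer than 1000 UMIs met the other conditions. Just outside the rule, 47 NC and 32 CO barcodes had exactly 1 Cd3 chain, and the transcripts of the NC ones included the B cell genes Cd79b (669 CPM) and Ebf1 (1081 CPM). Natural killer (NK) cells share much of their programme with T cells. Of 9 NK markers measured, Ncr1 and Gzma were at 0 in T cells of both groups, and the summed level of the list was 317 to 432 CPM in the NC libraries and 351 to 562 CPM in the CO libraries. Myelin transcripts were carried by T cells of both groups. The 7 oligodendrocyte markers summed to between 6367 and 15296 CPM in the NC libraries and between 638 and 10042 CPM in the CO libraries, with CO replicate 03 lowest. Of 11 microglial markers P2ry13 was at 0, and the list summed to 123 to 243 CPM in NC and 139 to 195 CPM in CO. Other lists differed more. Endothelial markers summed to 9.89 to 311 CPM in NC and 0 to 18.1 CPM in CO. B cell markers summed to 33.4 to 195 and 9.52 to 18.1 CPM, and pericyte and smooth muscle markers to 5.93 to 48.6 and 0 CPM. The myeloid gene Lyz2 was 214, 0 and 1310 CPM in NC and 57.1, 72.5 and 28.7 CPM in CO. Neuronal markers went the other way, 2.38 to 23.7 CPM in NC and 14.3 to 316 CPM in CO. Innate lymphoid cell markers were also higher in every CO library, 435 to 474 CPM in NC and 598 to 690 CPM in CO. Most of that sum came from Gata3 and Il7r, given below with T cell genes, and Areg and Arg1 were at 0. Erythroid markers summed to 251 to 322 CPM in NC and 352 to 429 CPM in CO. Of 1485 barcodes treated as doublets in an alternative, 8 were T cells, and 4 of these came from CO replicates 01 and 03, where the highest 6% of scores was taken because the caller marked under 0.5%. The part of transcripts of NK cells, oligodendrocytes, microglia or the other classes in the differences below was not tested, beyond the values given without such cells.

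T cells made up a smaller share of the CO barcodes than of the NC barcodes. There were 50, 65 and 65 T cells in the NC libraries, which is 0.850%, 1.13% and 1.03% of barcodes, and 30, 24 and 26 in the CO libraries, which is 0.543%, 0.470% and 0.476%. Every CO library lay below every NC library. Over the groups the share was 1.00% (0.863% to 1.16%) in NC and 0.497% (0.394% to 0.618%) in CO, a ratio of 0.495 (0.376 to 0.648). Thinned to 1000 UMIs per barcode before the rule was applied, there were 71 NC and 23 CO T cells, and the ratio of the T cell share was 0.361. A share depends on every other cell in the suspension. Set against barcodes with at most 1 microglial marker alone, the ratio was 0.548 (0.415 to 0.717). B cells, taken as barcodes without Cd3 and with at least 2 of 4 B cell markers, had a ratio of 0.472 (0.283 to 0.766), so T cells per B cell were 3.05 in NC and 3.20 in CO. NK cells, taken as barcodes without Cd3 and with at least 3 of Ncr1, Klrd1, Prf1, Gzmb, Nkg7 and Gzma, numbered 16 in NC and 37 in CO, and their ratio was 2.58 (1.40 to 4.96). T cells per NK cell went from 11.3 (6.74 to 20.1) in NC to 2.16 (1.45 to 3.28) in CO. T cells per neutrophil were 25.7 in NC and 1.38 in CO, and T cells per macrophage 0.412 (0.344 to 0.491) and 0.251 (0.194 to 0.321). The numbers of T cells per volume of tissue or blood were not measured.

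**Figure D1:**
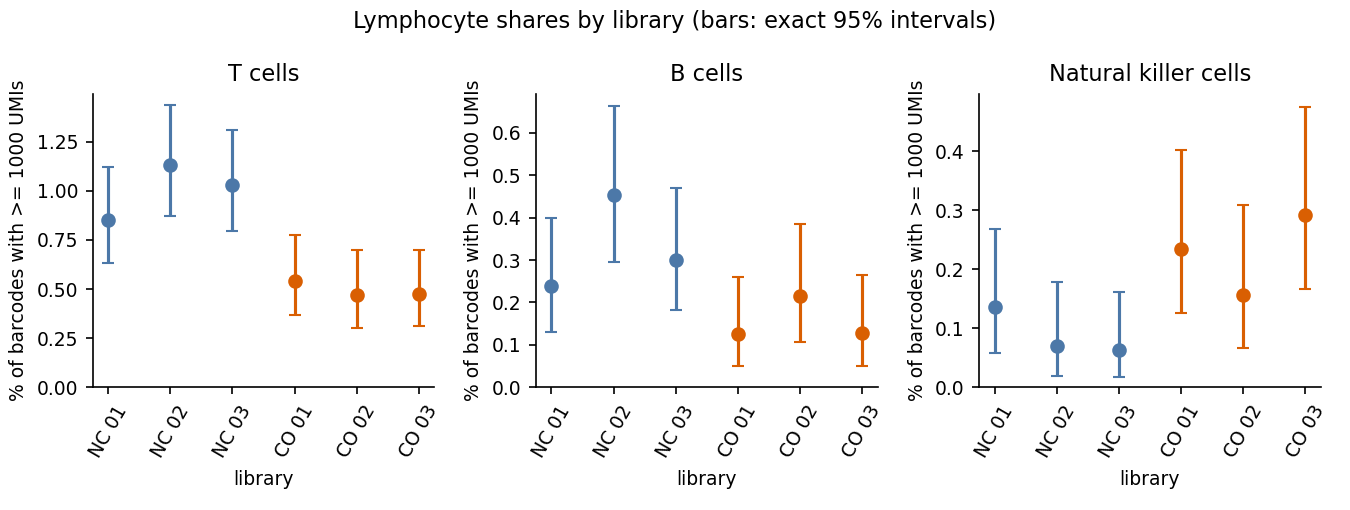
Share of T cells, B cells and NK cells among barcodes with at least 1000 UMIs, in percent, for each of 3 NC (blue) and 3 CO (orange) libraries, with exact binomial 95% intervals as bars. The T cell share lies between 0.850% and 1.13% in NC and between 0.470% and 0.543% in CO, while the NK share is higher in each CO library than in each NC library.

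Many T cells showed neither coreceptor, 64.4% in NC and 48.8% in CO at full depth. Cd4 marks helper and regulatory T cells and Cd8a and Cd8b form the coreceptor of cytotoxic T cells. With each T cell thinned to 1000 UMIs, Cd4 was detected in 7 of 180 NC cells (3.89%, 1.58% to 7.85%) and in 2 of 80 CO cells (2.5%, 0.304% to 8.74%). Cd8a or Cd8b was detected in 32 NC cells (17.8%, 12.5% to 24.2%) and in 18 CO cells (22.5%, 13.9% to 33.2%), and no cell had both at this depth. These intervals overlap between the groups. At full depth 18 NC and 9 CO T cells had Cd4 (10.0% and 11.3%), 49 NC and 32 CO T cells had Cd8a or Cd8b (27.2% and 40.0%), and 3 NC cells had both. Endothelial cells, which should lack the coreceptors, gave the background from free RNA. Their share with Cd4 at full depth was at most 1.34% (CO), at a median depth of 4223 to 5413 UMIs over libraries, and their share with Cd8a or Cd8b at most 0.334%. Thinned, these shares were at most 0.223% and 0.111%. The level of Cd8a was 168, 194 and 217 CPM in the NC libraries and 190.5, 78.6 and 218 CPM in the CO libraries, and the groups overlapped. Cd8b was 48.6, 49.4 and 50.0 CPM in the NC libraries and 167, 139 and 218 CPM in the CO libraries, a log2 ratio of 1.82 (0.99 to 2.68) without overlap. The CO libraries thus stood apart for one coreceptor chain and not for the other. With the T cells that carried at least 2 NK markers left out (34 in NC, 16 in CO), the Cd8b value was 1.53. Cd8a or Cd8b was then detected in 28 of 146 NC T cells (19.2%) and in 17 of 64 CO T cells (26.6%) at full depth. Thinned, it was detected in 20 of these NC cells (13.7%) and in 8 of these CO cells (12.5%).

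Across the transcriptome, 6429 genes had at least 30 UMIs over both groups, with a median log2 ratio of -0.08, and 45.7% of them were higher in CO. Of 4515 genes with a mean log2 CPM of at least 5, CO exceeded NC at least 2-fold in 309 (6.84%) and was below it at least 2-fold in 410 (9.08%). In 9.92% of these genes all 3 CO libraries lay above all 3 NC libraries, and in 13% below. For the gene lists below, counts of members at least 2-fold apart or without overlap are read against these shares. Counts of members with an interval above or below 0 have no share over all genes beside them and are a description only. Of the genes given below, Jun, Junb, Fosb, Klf6, Btg2, Atf3, Klf4, Nr4a1, Rel, Traf1, Birc3, Tnfaip3, Nfkbia, Relb, Jak1, Jak2, Dock8, Msn, Cxcr4, Il4r, Ifnar1, Ifngr1, Il2rb, Ly49s6, Tsc22d3, Ddit4, Rela, Slc2a1, Hif1a, Gapdh, Ldha, Hspa5, Ddit3, Ppp1r15a and B2m fall outside the rule for named genes and were chosen after their values were seen.

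Immediate early genes were mostly higher in CO T cells. Their products, such as the AP-1 subunits Fos and Jun, are made within minutes of a stimulus, and several are transcription factors for later genes. Of 26 members measured, 21 were higher and 5 lower, with a median of 0.49, and 16 had an interval above 0 and 2 below. In 9 of the 26 all CO libraries lay above all NC libraries, beside 9.92% of all genes at level, and 5 were at least 2-fold higher, beside 6.84%. Fos was 1703, 1101 and 1244 CPM in the NC libraries and 2509, 3095 and 3368 CPM in the CO libraries, a log2 ratio of 1.16 (0.99 to 1.34). The lowest CO library exceeded the highest NC library. The AP-1 partner Junb was 2005, 1845 and 2053 CPM in the NC libraries and 4023, 4298 and 4219 CPM in the CO libraries, 1.09 (0.95 to 1.23), with the values of each group close together. Fosb was 1254, 1730.1 and 1606 CPM in the NC libraries and 3052, 2895 and 3087 CPM in the CO libraries, 0.96 (0.79 to 1.12). Fosl2, a Fos relative, was low in NC, with 16.2, 27.7 and 23.8 CPM in the NC libraries and 76.2, 103 and 155 CPM in the CO libraries, 2.24 (1.08 to 3.49). Egr1, a zinc finger factor induced by growth and receptor signals, was 205, 285 and 231 CPM in the NC libraries and 333, 653 and 770.3 CPM in the CO libraries, 1.21 (0.81 to 1.62). Nr4a3, an orphan nuclear receptor induced by T cell receptor signals, was 238, 227 and 212 CPM in the NC libraries and 486, 786 and 575 CPM in the CO libraries, 1.42 (1.02 to 1.83). For each of these 6 genes the groups did not overlap. The Nr4a3 relative Nr4a1, a usual reporter of receptor signals, was 756 CPM in NC and 899 CPM in CO, 0.25 (-0.03 to 0.52), and the activation marker Cd69 was 907 and 1088 CPM, 0.26 (0.01 to 0.51). Klf6 (0.89, 0.73 to 1.04) and Btg2 (0.49, 0.35 to 0.63) were higher in CO without overlap, and Jun (0.64, 0.51 to 0.76) was higher with overlap. Some regulators had values below 0. Atf3, a stress factor, was 460 CPM in NC and 231 CPM in CO (-0.99, -1.50 to -0.51), and Klf4 165 and 74.6 CPM (-1.15, -2.09 to -0.31), both with overlap. Without the T cells with at least 2 NK markers Atf3 stood at 0.65, and thinned at 0.14, so its direction did not hold. Without those T cells 23 of the 26 members were higher. Leaving out 1 library moved some values: Btg2 was 0.30 without CO replicate 02, Atf3 -0.61 without NC replicate 01, -1.90 without CO replicate 02 and -0.63 without CO replicate 03, and Klf4 -0.66 without CO replicate 01 and -2.07 without CO replicate 03. Cd69 was 0.17 without NC replicate 02, 0.45 without NC replicate 03 and 0.12 without CO replicate 01.

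**Figure D2:**
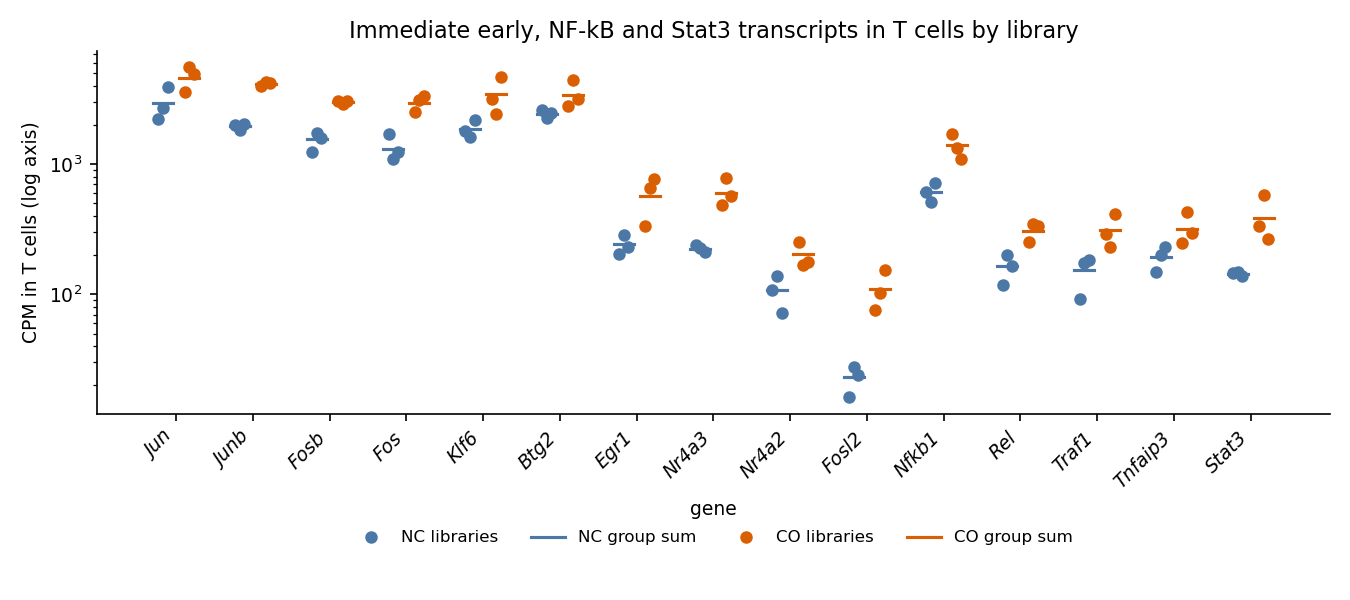
Level of 15 transcripts in T cells, in CPM on a log axis, with 1 point per library (NC blue, CO orange) and a bar for the sum over each group. In 14 of the genes shown every CO point lies above every NC point, and in Jun the groups overlap. Several of these genes were chosen after their values were seen. Members of the same lists that were lower or overlapped, such as Nfkbia, Relb, Atf3 and Nr4a1, are not shown.

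In microglia of the same libraries this list did not show that direction. Microglia were taken as barcodes without Cd3 and with at least 3 of the 4 microglial markers. Of the same 26 genes 7 were higher and 19 lower there, with a median of -0.12 beside 0.00 over all 11313 genes of microglia. Fos was 2718 CPM in NC microglia and 2381 CPM in CO microglia (-0.19), Egr1 3261 and 2280 CPM (-0.52), and Nr4a3 111 and 74.7 CPM (-0.57). Border macrophages had 10 of 25 members higher, with a median of -0.02. B cells had 13 of 23 members higher, with a median of 0.23 beside -0.46 over all genes of B cells, and NK cells 17 of 25 with a median of 0.28 beside 0.33. The differences between classes were not tested.

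**Figure D3:**
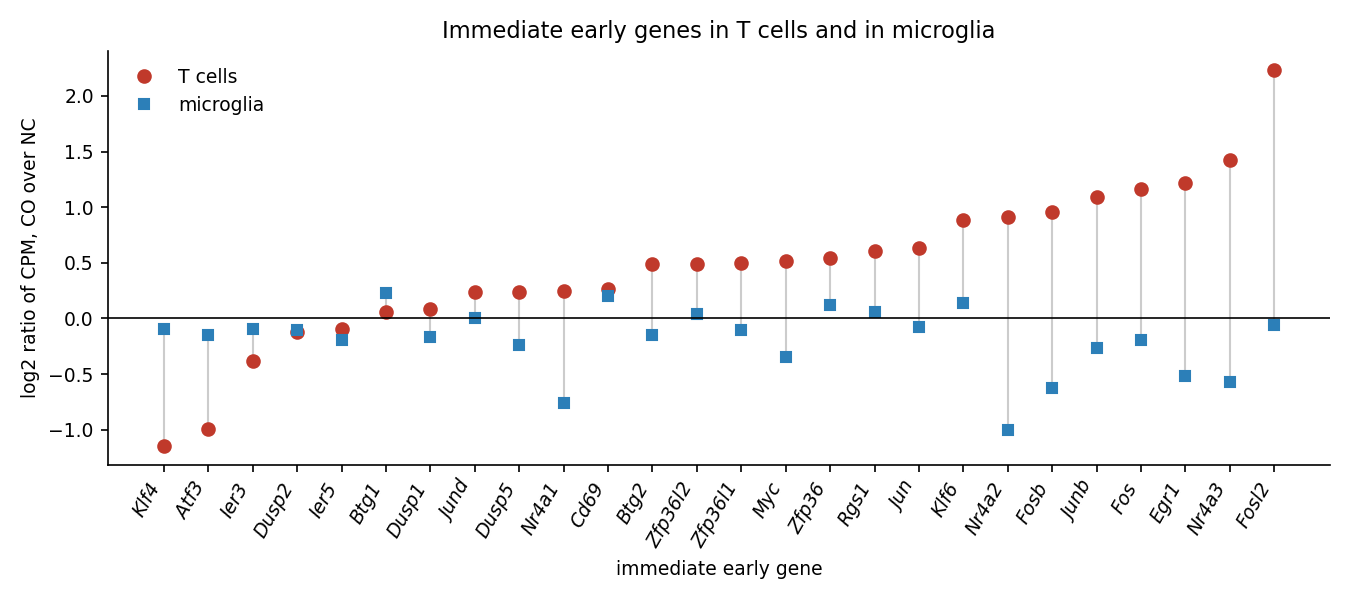
Log2 ratio of CPM, CO over NC, of 26 immediate early genes in T cells (red circles) and in microglia (blue squares), ordered by the T cell value. T cell values reach 2.24 (Fosl2), and Nr4a2, Fosb, Egr1 and Nr4a3 lie above 0 in T cells and below 0 in microglia.

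Promoter sequences of these genes are shown because most of the list was higher in CO. Of 17 immediate early or NF-kB genes that were higher in CO with an interval above 0 and no overlap, 13 had an entry in the RefSeq promoter table (build GRCr8). The 250 bases before each annotated start were searched on both strands for TGACG (the core of the cyclic AMP response element), the full element TGACGTCA, which contains it, the AP-1 element TGACTCA, the CArG box bound by serum response factor, and the NF-kB site. Among all 33469 promoters of that length, TGACG occurred in 18.2%, TGACGTCA in 1.59%, TGACTCA in 4.05%, the CArG box in 1.5% and the NF-kB site in 6.33%. Of the 13 genes, 8 held TGACG, 1 held TGACGTCA, 2 held TGACTCA, 2 held a CArG box and 3 held an NF-kB site. A match says only that these letters are present. The windows of Fosb, Fosl2 and Nfkb1 held none of them. Below are 5 of the windows, chosen to show each motif, in the direction of the gene with matches in capitals (TGACG in Junb and Rel, TGACGTCA in Btg2, a CArG box in Klf6, NF-kB sites in Rel and Tnfaip3, and in Tnfaip3 also TGACG and TGACTCA). They are chr19:40080876-40081125 (plus strand), chr13:48087691-48087940, chr17:69458479-69458728, chr14:101921939-101922188 and chr1:15543980-15544229 (all minus strand).
Junb: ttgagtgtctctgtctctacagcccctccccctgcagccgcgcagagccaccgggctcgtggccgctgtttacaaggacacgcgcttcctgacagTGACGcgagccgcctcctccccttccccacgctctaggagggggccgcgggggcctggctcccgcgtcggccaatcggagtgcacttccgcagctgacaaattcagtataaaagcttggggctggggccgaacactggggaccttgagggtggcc
Btg2: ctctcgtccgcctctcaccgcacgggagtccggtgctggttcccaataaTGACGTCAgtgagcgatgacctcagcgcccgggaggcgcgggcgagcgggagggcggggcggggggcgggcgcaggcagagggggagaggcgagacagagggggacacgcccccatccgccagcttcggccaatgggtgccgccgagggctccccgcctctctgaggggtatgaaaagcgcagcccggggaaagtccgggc
Klf6: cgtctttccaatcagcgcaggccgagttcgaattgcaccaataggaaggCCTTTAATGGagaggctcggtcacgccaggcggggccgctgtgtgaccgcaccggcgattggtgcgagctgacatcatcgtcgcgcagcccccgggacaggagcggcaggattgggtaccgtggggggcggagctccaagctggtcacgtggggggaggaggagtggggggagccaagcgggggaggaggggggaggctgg
Rel: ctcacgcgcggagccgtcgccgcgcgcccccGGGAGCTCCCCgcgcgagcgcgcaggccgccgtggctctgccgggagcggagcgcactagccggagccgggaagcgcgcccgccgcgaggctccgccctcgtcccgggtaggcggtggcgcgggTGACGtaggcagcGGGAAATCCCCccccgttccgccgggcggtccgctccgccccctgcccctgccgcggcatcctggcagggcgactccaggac
Tnfaip3: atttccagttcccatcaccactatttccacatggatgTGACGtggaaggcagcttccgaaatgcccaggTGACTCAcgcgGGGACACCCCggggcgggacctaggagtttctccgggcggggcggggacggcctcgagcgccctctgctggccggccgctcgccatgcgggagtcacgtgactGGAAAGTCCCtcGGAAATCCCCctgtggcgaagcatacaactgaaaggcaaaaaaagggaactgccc

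The NF-kB list had more members higher than lower in CO T cells, with subunits and inhibitors on both sides. NF-kB dimers of Nfkb1, Rel and Rela move to the nucleus when their inhibitors are degraded. Of 26 members measured, 16 were higher and 10 lower (median 0.37), 8 with an interval above 0 and 3 below. In 10 of the 26 all CO libraries lay above all NC libraries, beside 9.92% of all genes at level. In 2 all CO libraries lay below, beside 13%. Without CO replicate 01 there were 14 higher and 12 lower with a median of 0.18, without CO replicate 02 again 14 and 12, and without NC replicate 01 the median was 0.22. Nfkb1, which encodes the p105 precursor of p50 and belongs to the pathway named in the series title, was 611, 510.1 and 724 CPM in the NC libraries and 1709, 1336 and 1098 CPM in the CO libraries, 1.21 (0.95 to 1.46). The groups did not overlap, and 132 of 180 NC and 69 of 80 CO T cells had a UMI of it. Rel, the subunit c-Rel prominent in lymphocytes, was 119, 202 and 164 CPM in the NC libraries and 252, 351 and 333 CPM in the CO libraries, 0.89 (0.36 to 1.41), without overlap. Traf1, an adaptor of tumour necrosis factor receptors, was 91.9, 174 and 183 CPM in the NC libraries and 290.4, 229.7 and 414 CPM in the CO libraries, 1.02 (0.49 to 1.55), also without overlap. The survival gene Bcl2a1 (1.31, 0.59 to 2.03), the ligase Birc3 (0.86, 0.28 to 1.44) and the feedback inhibitor Tnfaip3 (0.71, 0.20 to 1.20), also known as A20, were higher. The inhibitor Nfkbia, or I-kappa-B alpha, was lower, at 1524, 1524 and 1870.0 CPM in the NC libraries and 1324, 919 and 1460.0 CPM in the CO libraries, -0.39 (-0.61 to -0.18), and Relb, a subunit of the non-canonical pathway, was -0.81, both without overlap. Rela, the main partner of p50, was 52.5 CPM in NC and 27.3 CPM in CO (-0.94, -2.68 to 0.48) with overlap, and the chemokine Ccl3 312 and 180 CPM (-0.79, -1.38 to -0.24) with overlap, though 0.67 without the T cells with NK markers and 0.67 with no brain marker, and -2.46 without CO replicate 01, -0.42 without CO replicate 02 and -0.40 without CO replicate 03. Nfkbia was -0.23 without CO replicate 02. In microglia 10 of 25 members were higher (median -0.12) and in macrophages 3 of 23 (median -0.58). In B cells 15 of 19 were higher (median 0.88, beside -0.46 over all genes) and in NK cells 17 of 21 (median 0.51, beside 0.33).

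Of the CLCF1 and gp130 axis, Stat3 was higher in CO T cells. CLCF1 is a cytokine that signals through gp130 (Il6st) to Jak kinases and Stat3. Clcf1 itself had 6 UMIs in NC and 5 in CO T cells, and Il6st 21 and 4, both below the minimum for a comparison. Stat3 was 146, 148 and 138 CPM in the NC libraries and 333, 580.3 and 264 CPM in the CO libraries, 1.42 (0.91 to 1.93), without overlap. The interleukin-6 receptor gene Il6r was 99.998, 55.4 and 40.5 CPM in the NC libraries and 14.3, 24.2 and 40.2 CPM in the CO libraries, -1.31 (-3.10 to 0.11), an interval that includes 0, and the gp130 cytokine Osm had 44 UMIs in NC and 0 in CO, at least 6.22-fold lower against a floor of 3 counts over the group. The Osm counts came from 7 NC cells, and neutrophils of CO carried it at 8792 CPM. Jak1 (0.08, -0.31 to 0.46) and Jak2 (-0.14, -0.83 to 0.52) had intervals that included 0. Of 6 members measured, 3 were higher and 3 lower (median -0.03), and the sign of the median turned in 5 of 16 alternatives.

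Genes of T cell receptor signalling did not move as a list, but the adaptor Lat was among the lowest. Of 31 members measured, 13 were higher and 18 lower, with a median of -0.04. Lat was 199.997, 225 and 219 CPM in the NC libraries and 61.9, 54.4 and 34.5 CPM in the CO libraries, -2.08 (-3.22 to -1.12). All CO libraries lay below all NC libraries, and Lat was detected in 106 NC and 17 CO T cells. Its effector Plcg1, which cleaves membrane phosphoinositides, was 43.2, 61.3 and 54.8 CPM in the NC libraries and 0, 18.1 and 5.75 CPM in the CO libraries, -2.89 (-7.08 to -0.56), and endothelial cells of NC carried it at 83.7 CPM. Cd6, a costimulatory receptor of T cells, was 75.7, 85.0 and 183 CPM in the NC libraries and 47.6, 66.5 and 23.0 CPM in the CO libraries, -1.33 (-2.58 to -0.26). Lck was 254, 214 and 243 CPM in the NC libraries and 171, 127 and 167 CPM in the CO libraries, -0.58 (-1.23 to 0.02), and the zeta chain Cd247 -0.58 (-1.06 to -0.13). In the other direction, the Ras activator Rasgrp1 was 119, 144 and 117 CPM in the NC libraries and 305, 212 and 167 CPM in the CO libraries, 0.86 (0.26 to 1.46). The transmembrane adaptor Sit1 was 67.6, 31.6 and 33.4 CPM in the NC libraries and 109.5, 121 and 92.0 CPM in the CO libraries, 1.34 (0.35 to 2.33). Lck, Rasgrp1 and Sit1 did not overlap between the groups. Prkcq, the protein kinase C of the immune synapse, was 1054 CPM in NC and 1048 CPM in CO (-0.01, -0.26 to 0.24), Cd28 321 and 324 CPM (0.01, -0.45 to 0.46), and Ptprc (CD45) 1830 and 1700 CPM (-0.11, -0.30 to 0.08). The members that stood apart thus lay on both sides of 0. Leaving out 1 library moved Plcg1 to -4.37 (without CO replicate 02), Cd6 to -0.81 (without NC replicate 03) and Cd247 to -0.37 (without CO replicate 01), and the median of the list to 0.06 (without NC replicate 03). The Lat value stayed between -2.27 and -1.82 in every alternative run for it.

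Adhesion and migration genes were lower in nearly all members. These genes move a lymphocyte through vessel walls and tissue. Of 21 members measured, 3 were higher and 18 lower (median -0.31), none with an interval above 0 and 5 below. For 5 of the 21 all CO libraries lay below all NC libraries, beside 13% of all genes at level. Only 2 were at least 2-fold lower, beside 9.08%, so most of the differences were small. Vim, the intermediate filament vimentin, was 1292, 1289 and 672 CPM in the NC libraries and 438, 526 and 598 CPM in the CO libraries, -1.08 (-1.41 to -0.76). Arhgdib, a regulator of small GTPases in leukocytes, was 786, 773 and 712 CPM in the NC libraries and 362, 532 and 471 CPM in the CO libraries, -0.76 (-1.12 to -0.41). The actin regulators Dock8 (-0.72, -1.32 to -0.16) and Msn (-0.51, -0.89 to -0.13) were lower without overlap. The integrin chain Itgal of LFA-1 was 44.8 CPM in NC and 14.6 CPM in CO (-1.62, -4.18 to 0.21), while the hyaluronan receptor Cd44 was 295 and 297 CPM (0.01, -0.47 to 0.47). Without CO replicate 01 the median was -0.50. The list was also lower in NK cells (7 of 16 higher, median -0.32 beside 0.33 over all genes) and in macrophages (8 of 18 higher, median -0.19 beside -0.01), but not in microglia (13 of 20 higher, median 0.09) or B cells (8 of 14 higher, median 0.26). The differences between classes were not tested.

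Receptors for cytokines, chemokines and lipids were split, 13 higher and 13 lower of 26, with a median of 0.01 whose sign turned in 8 of 16 alternatives. S1pr1 senses sphingosine 1-phosphate and lets lymphocytes leave lymphoid organs. It was 657, 443 and 481 CPM in the NC libraries and 176, 259.9 and 437 CPM in the CO libraries, -0.86 (-1.32 to -0.43), without overlap. Cxcr4, the receptor for Cxcl12 that retains lymphocytes in tissue and marrow, was 1303, 1242 and 1675 CPM in the NC libraries and 2195, 2793 and 1834 CPM in the CO libraries, 0.69 (0.51 to 0.87), again without overlap and in the opposite direction. The interleukin-17 receptor chain Il17ra was 78.4, 63.3 and 88.1 CPM in the NC libraries and 14.3, 24.2 and 0 CPM in the CO libraries, -2.57 (-5.32 to -0.73). Il4r (-0.80, -1.49 to -0.16) and the interferon receptor chain Ifnar1 (-0.89, -1.78 to -0.09) were lower, while its partner Ifnar2 (1.94, 0.39 to 3.62), the interferon gamma receptor Ifngr1 (0.83, 0.44 to 1.23) and Il2rb (1.16, 0.45 to 1.86), shared by the receptors of interleukins 2 and 15, were higher. S1pr1 was -0.54 without CO replicate 01 and -1.30 without CO replicate 03. Among genes of naive and recirculating T cells, 6 of 11 were higher (median 0.09). The median turned sign in 7 of 16 alternatives, among them -0.17 without CO replicate 02 (2 of 11 higher), -0.11 without NC replicate 02, -0.028 without CO replicate 03, -0.32 with no brain marker and -0.70 thinned (0 of 7 higher). Lef1, a factor of naive T cells, was 1340 CPM in NC and 768 CPM in CO (-0.80, -1.08 to -0.54) with overlap, whereas its relative Tcf7 (-0.19, -1.17 to 0.71), Il7r (0.30, -0.26 to 0.84) and Ccr7 (0.09, -1.85 to 1.78) had intervals that included 0. Of 14 genes of tissue residence 7 were higher (median -0.00076), and the sign of the median turned in 11 of 16 alternatives. Rgs1, a brake on chemokine receptors, was 650 CPM in NC and 990 CPM in CO (0.61, 0.33 to 0.88) with overlap, but 0.10 without CO replicate 03 and 0.92 without CO replicate 01, and Rgs2 was 141, 194 and 193 CPM in the NC libraries and 281, 302 and 362 CPM in the CO libraries, 0.81 (0.30 to 1.32), without overlap.

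Several factors that set helper T cell fates were higher in CO. Of 13 helper and regulatory genes measured, 8 were higher and 5 lower (median 0.32), 4 with an interval above 0 and none below. In 4 of the 13 all CO libraries lay above all NC libraries, beside 9.92% of all genes at level. Only 1 was at least 2-fold higher, beside 6.84%. The list medians of the single CO libraries had an SD of 0.41, larger than the median itself. Gata3, the factor of type 2 helper cells and innate lymphoid cells, was 235, 209.6 and 281 CPM in the NC libraries and 433, 351 and 397 CPM in the CO libraries, 0.72 (0.28 to 1.17). Tbx21, or T-bet, the factor of type 1 responses, was 37.8, 45.5 and 40.5 CPM in the NC libraries and 52.4, 151 and 109 CPM in the CO libraries, 1.26 (0.25 to 2.28). Bcl6, the factor of follicular helper cells, was 51.4, 63.3 and 81.0 CPM in the NC libraries and 143, 139 and 109 CPM in the CO libraries, 1.00 (0.16 to 1.83). Gata3, Tbx21 and Bcl6 did not overlap between the groups, and Rora was 267 CPM in NC and 471 CPM in CO (0.82, 0.40 to 1.23) with overlap, or 0.43 without CO replicate 03. Regulatory T cell genes did not share a clear direction. Foxp3 was 101.1 CPM in NC and 146 CPM in CO (0.53, -0.22 to 1.25), Il2ra 883 and 764 CPM (-0.21, -0.50 to 0.07), Ikzf2 555 and 519 CPM (-0.10, -0.45 to 0.25) and Ctla4 140 and 115 CPM (-0.29, -1.08 to 0.44). The cytokine genes Il17a (15 and 2 UMIs), Il4 (20 and 0) and Il10 (4 and 0) were too sparse to compare, and Ifng was 38.6 CPM in NC and 16.4 CPM in CO (-1.24, -3.63 to 0.54). Of 7 inhibitory receptors 4 were higher (median 0.58, and -0.20 without CO replicate 02, 0.25 without CO replicate 01 and 0.23 without CO replicate 03). Tigit was 0, 7.91 and 4.76 CPM in the NC libraries and 38.1, 36.3 and 57.5 CPM in the CO libraries, 3.24 (0.93 to 6.47), detected in 3 NC and 7 CO cells, and Cd96, which shares its ligand family, was 43.2, 59.3 and 57.2 CPM in the NC libraries and 99.99, 206 and 74.7 CPM in the CO libraries, 1.20 (0.30 to 2.09), or 0.72 without CO replicate 02.

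Genes of cytotoxic cells were split between perforin and granzyme M. Prf1, which encodes the pore protein perforin, was 91.9, 103 and 107 CPM in the NC libraries and 171, 218 and 224 CPM in the CO libraries, 1.00 (0.33 to 1.66), without overlap, detected in 69 NC and 36 CO cells. Nkg7, a protein of cytotoxic granules, was 0, 31.6 and 16.7 CPM in the NC libraries and 129, 48.4 and 46.0 CPM in the CO libraries, 2.14 (0.79 to 3.61), from 11 cells in each group. Gzmm, granzyme M, was 94.6, 233 and 214 CPM in the NC libraries and 57.1, 6.04 and 51.7 CPM in the CO libraries, -2.23 (-3.54 to -1.15), from 25 NC and 8 CO cells, and -0.59 in T cells with all 3 Cd3 chains. Gzma and Gzmf had 0 UMIs in T cells of both groups and Gzmb 0 in NC and 3 in CO, while NC NK cells held Gzma at 2057 CPM and Gzmb at 783 CPM. Ccl5, a chemokine of memory and cytotoxic lymphocytes, had 159 UMIs in 3 NC cells and 0 in CO, at least 22.5-fold lower, and 100 of these UMIs came from 1 cell. Srgn, the proteoglycan core of granules, was 586, 379.6 and 334 CPM in the NC libraries and 205, 224 and 247 CPM in the CO libraries, -0.92 (-1.44 to -0.43). Of 11 members measured 7 were higher and 4 lower (median 0.19, or 0.05 without CO replicate 02 and 0.53 without CO replicate 03). Without the T cells with at least 2 NK markers, 4 of 8 were higher, the median was -0.02 and Prf1 stood at 0.43. Prf1, Nkg7, Klrd1, Gzma and Gzmb are among the markers by which those cells were left out, so lower values of these genes follow in part from the choice.

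The Ly49 and related killer cell lectin-like receptors, which read class I and related molecules on NK cells and some T cells, included several members that were lower in CO T cells. Klra22 was 105, 119 and 38.1 CPM in the NC libraries and 0, 0 and 0 CPM in the CO libraries, with 115 UMIs over 17 NC cells, and was at least 16.3-fold lower in CO. Ly49i4 was 149, 221 and 212 CPM in the NC libraries and 0, 18.1 and 11.5 CPM in the CO libraries, -4.44 (-7.92 to -2.41), and Ly49s5 64.9, 134 and 42.9 CPM in the NC libraries and 9.52, 12.1 and 5.75 CPM in the CO libraries, -3.22 (-6.73 to -1.13). The groups did not overlap for these 3 genes. Ly49i4 was also lower in microglia of every CO library, at 0.801, 8.26 and 4.13 CPM in NC and 0.137, 0 and 0.273 CPM in CO (-4.96). Of 9 receptors measured, a list put together after values were seen, 7 were lower and 2 higher (median -1.97, or -1.26 without CO replicate 01). In 5 all CO libraries lay below all NC libraries, beside 13% of all genes at level. Since the list was put together after these values were seen, that share is no yardstick for it. The list medians of the single CO libraries had an SD of 1.83. Ly49s6 was 108 CPM in NC and 102 CPM in CO (-0.08, -0.94 to 0.71), Klrd1 (0.19, -0.53 to 0.88) had an interval that included 0, and Klrk1 (NKG2D) was 0.68 (0.11 to 1.24), or 0.28 without CO replicate 01. Ly49 genes are near-identical copies of each other, so counts may be split between them and single members are uncertain. Summed over the 21 family members in the files, the receptors stood at 835, 1054 and 789 CPM in the NC libraries and 629, 925 and 328 CPM in the CO libraries, which overlap. They were detected in 113 of 180 NC and 51 of 80 CO T cells. The lower values thus concerned single members more than the family as a whole. Without the T cells with at least 2 NK markers, Ly49i4 stood at -4.11 and Ly49s5 at -2.92.

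**Figure D4:**
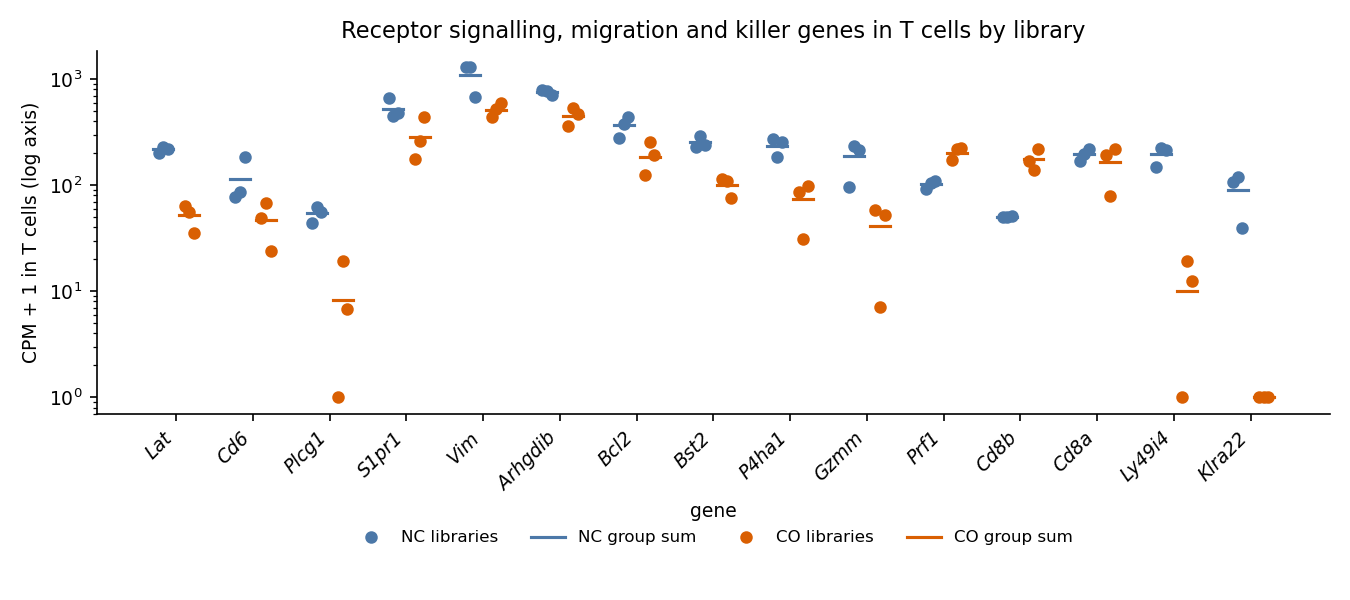
Level of 15 genes of receptor signalling, migration, survival and killing in T cells, in CPM plus 1 on a log axis, with 1 point per library (NC blue, CO orange) and a bar for the sum over each group; a point at 1 is a level of 0. Lat, Plcg1, S1pr1, Vim, Ly49i4 and Klra22 lie lower in every CO library, Prf1 and Cd8b higher, and Cd8a overlaps.

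Genes induced by glucocorticoids were 13 higher and 7 lower of 20 (median 0.23, or 0.13 without CO replicate 02 and 0.14 without NC replicate 03), 6 with an interval above 0 and 3 below. Fkbp5, a chaperone of the glucocorticoid receptor and among its best known targets, was 67.6, 41.5 and 69.1 CPM in the NC libraries and 152, 163 and 184 CPM in the CO libraries, 1.52 (0.71 to 2.33). The groups did not overlap. Other known targets stood elsewhere. Tsc22d3 (GILZ) was 566 CPM in NC and 553 CPM in CO (-0.03, -0.38 to 0.31), and Ddit4, also a target of hypoxia, was 265, 326 and 167 CPM in the NC libraries and 157, 103 and 69.0 CPM in the CO libraries, -1.19 (-1.93 to -0.51), lower without overlap. Sgk1 was 91.9, 92.9 and 95.3 CPM in the NC libraries and 386, 133 and 109 CPM in the CO libraries, 1.25 (0.59 to 1.91), and 0.39 without CO replicate 01. Without the T cells in which brain cell markers held over 2% of UMIs, the median of the list was -0.10.

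Targets of hypoxia-inducible factor and glycolytic enzymes had more members lower than higher. Of 19 measured, 5 were higher and 14 lower (median -0.30, or -0.19 without CO replicate 03), 1 with an interval above 0 and 5 below. P4ha1, a collagen prolyl hydroxylase induced by hypoxia, was 273, 182 and 255 CPM in the NC libraries and 85.7, 30.2 and 97.7 CPM in the CO libraries, -1.67 (-2.61 to -0.85). The enolase gene Eno1 was 162, 219 and 121 CPM in the NC libraries and 66.7, 42.3 and 109 CPM in the CO libraries, -1.23 (-2.19 to -0.39). For P4ha1 and Eno1, 2 of the 19, all CO libraries lay below all NC libraries, beside 13% of all genes at level. In 0 of the 19 all CO libraries lay above, beside 9.92%. At least 2-fold lower were 5, beside 9.08%, and 1 was at least 2-fold higher, beside 6.84%. Bnip3 (-1.99, -4.53 to -0.21) rested on 8 NC and 2 CO cells, and was -3.47 without CO replicate 02. Slc2a1 was -1.23 (-2.55 to -0.11), but -0.12 without NC replicate 01. Hif1a was 377 CPM in NC and 366 CPM in CO (-0.05, -0.47 to 0.37), Gapdh 114 and 115 CPM (0.01, -0.80 to 0.76), and Ldha 201 and 253 CPM (0.33, -0.21 to 0.85). Microglia carried P4ha1 at 2382 CPM in NC, and 10 of the 19 members were higher in CO microglia. Subunits of the respiratory chain and ATP synthase were 19 higher and 23 lower of 42 (median -0.03), and the sign of the median turned in 6 of 16 alternatives.

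Genes for unfolded protein and stalled translation stood apart downward more often than upward in CO. Of the 20 measured, 6 had all CO libraries below all NC libraries, beside 13% of all genes at level. Only 2 had them all above, beside 9.92%, and only 1 was at least 2-fold lower, beside 9.08%. The 2 above were Ddit3 and Ppp1r15a, genes downstream of the factor Atf4. Like Hspa5, which was lower, they were chosen after their values were seen. Of 20 members of the stress responses to unfolded protein and to stalled translation, 9 were higher and 11 lower (median -0.34, or -0.08 without NC replicate 02, -0.18 without CO replicate 02 and -0.13 without CO replicate 03). Hspa5 (BiP), the main chaperone there, was 581, 514 and 531 CPM in the NC libraries and 238, 387 and 362 CPM in the CO libraries, -0.74 (-1.18 to -0.33), without overlap. Ddit3 (CHOP) was 186, 156 and 193 CPM in the NC libraries and 309, 242 and 345 CPM in the CO libraries, 0.76 (0.24 to 1.28), and Ppp1r15a (GADD34), which restarts translation, 470.3, 297 and 445 CPM in the NC libraries and 733, 731 and 506 CPM in the CO libraries, 0.74 (0.40 to 1.09), both without overlap in the other direction. Heat shock genes were 10 higher and 10 lower of 20 (median -0.01, turned in 7 of 16 alternatives). Hspb1 was 259, 186 and 209.6 CPM in the NC libraries and 105, 127 and 126 CPM in the CO libraries, -0.86 (-1.60 to -0.18), and endothelial cells of CO carried it at 9314 CPM.

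Interferon-stimulated genes were 6 higher and 12 lower of 18 (median -0.40, or -0.08 without NC replicate 03, with 6 higher and 7 lower). Bst2 (tetherin) was 229.7, 293 and 236 CPM in the NC libraries and 114, 109 and 74.7 CPM in the CO libraries, -1.36 (-2.15 to -0.64), and Isg15 18.9, 37.6 and 57.2 CPM in the NC libraries and 4.76, 6.04 and 5.75 CPM in the CO libraries, -2.82 (-8.14 to -0.16). Both were lower in every CO library. Gbp5, a guanylate-binding protein induced by interferon gamma, went the other way with 43.2, 35.6 and 50.0 CPM in the NC libraries and 95.2, 187 and 189.7 CPM in the CO libraries, 1.85 (0.96 to 2.78). In T cells with all 3 Cd3 chains the list stood at 7 higher and 7 lower, with a median of 0.01.

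Genes of apoptosis and survival were 11 higher and 8 lower of 19 (median 0.29). The median was 0.029 without CO replicate 01, 0.15 without CO replicate 02, 0.047 without NC replicate 02 and 0.47 without NC replicate 03, and turned to -0.12 thinned and -0.053 without the T cells with over 2% brain marker UMIs. The survival gene Bcl2 was 276, 374 and 441 CPM in the NC libraries and 124, 254 and 189.7 CPM in the CO libraries, -0.999 (-1.58 to -0.46), and lay lower in every CO library. Its antagonist Bcl2l11 (Bim), which triggers death of lymphocytes, was 43.2, 91.0 and 52.4 CPM in the NC libraries and 171, 66.5 and 236 CPM in the CO libraries, 1.30 (0.51 to 2.10), with overlap. The death receptor Fas was 41.7 CPM in NC and 92.8 CPM in CO (1.16, 0.12 to 2.19), again with overlap. Proliferation genes were sparse. Mki67 had 56 UMIs in 5 NC cells and 0 in CO, and 31 of these UMIs came from 1 cell. Cytoplasmic ribosomal protein genes were 46 higher and 22 lower of 68 (median 0.10), but 25 and 41 thinned and 31 and 36 with no brain marker, and the median was 0.16 without CO replicate 01, 0.049 without CO replicate 03, 0.048 without NC replicate 02 and 0.18 without NC replicate 03. Of class I antigen presentation genes 2 were higher and 6 lower of 8 (median -0.25, or -0.021 without NC replicate 03 and -0.38 without NC replicate 02) with B2m at 0.03 (-0.05 to 0.12). Of 11 cytokine genes 7 were higher (median 0.29), but 5 of 10 without CO replicate 01 (median -0.036) and 1 of 4 thinned (median -0.44), and the median ran down to 0.059 without NC replicate 02. The 5 sex-linked genes had a median of 0.45, or 0.23 without NC replicate 02.

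**Figure D5:**
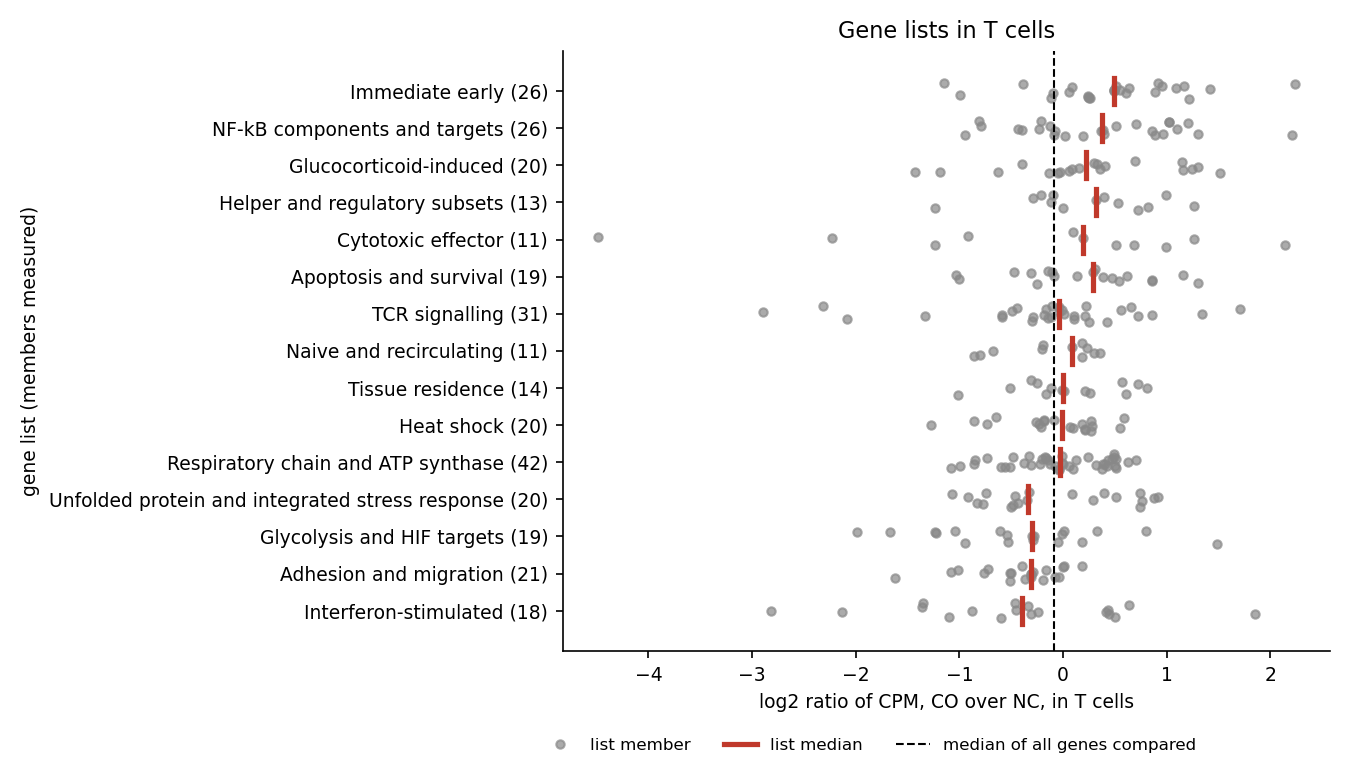
Log2 ratio of CPM, CO over NC, in T cells for each measured member (grey points) of 15 gene lists, with the list median (red bar) and the median of all genes compared (dashed line, -0.08). The medians run from 0.49 for immediate early genes to -0.40 for interferon-stimulated genes, and members of every list lie on both sides of 0.

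Genes at level were ranked by the interval bound nearest 0 where groups did not overlap and no other class compared carried them much higher. NK cells were not among the classes compared. Ramp3 came next after Epha5, whose counts lay in 3 cells. Ramp3 encodes a membrane partner that turns calcitonin-type receptors into receptors for adrenomedullin. It was 10.8, 39.5 and 14.3 CPM in the NC libraries and 190.5, 163 and 402 CPM in the CO libraries, a log2 ratio of 3.43 (2.43 to 4.57), or 10.8-fold, and was detected in 16 NC and 35 CO T cells. Among the other classes compared, which left out NK cells, the highest level of Ramp3 was 45.3 CPM, in NC oligodendrocytes. In microglia Ramp3 was at 0 in every NC library and at 0.274, 2.36 and 4.23 CPM in the CO libraries, the same direction. Rab11fip4, an effector of endosome recycling, was 21.6, 23.7 and 4.76 CPM in the NC libraries and 181, 115 and 109 CPM in the CO libraries, 3.03 (1.81 to 4.43). Homer1, a scaffold protein that also binds NFAT factors in T cells, was 35.1, 29.7 and 42.9 CPM in the NC libraries and 143, 139 and 184 CPM in the CO libraries, 2.12 (1.19 to 3.11). Filip1l was 78.4, 144 and 109.6 CPM in the NC libraries and 476, 296 and 546 CPM in the CO libraries, 1.96 (1.44 to 2.495). Other genes of this kind were Gfod1 (2.62, 1.27 to 4.15, or 1.69 without CO replicate 02), Klhl5 (2.64, 1.18 to 4.33), Abt1 (2.41, 1.24 to 3.69), Pi4kb (2.65, 0.90 to 4.75) and Ccp110 (2.997, 1.40 to 4.94). Ccl4, a chemokine of activated lymphocytes and myeloid cells, was 349, 899.7 and 781 CPM in the NC libraries and 6299, 1692 and 1086 CPM in the CO libraries, 2.21 (2.01 to 2.41). CO replicate 01 was far above the rest, 1 CO cell held 504 of its UMIs, microglia of CO carried it at 7179 CPM, and without CO replicate 01 the value was 0.99. Epha5 rested on 3 CO cells, of which 1 held 56 of its 61 UMIs.

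At the other end the lowest genes outside the Ly49 family were mostly of low level and wide interval. Tbce, a tubulin folding cofactor, was 78.4, 79.1 and 100.05 CPM in the NC libraries and 4.76, 6.04 and 11.5 CPM in the CO libraries, -3.56 (-7.72 to -1.27), detected in 63 NC and 3 CO cells. Pkp4 was 67.6, 77.1 and 52.4 CPM in the NC libraries and 9.52, 0 and 0 CPM in the CO libraries, -4.19 (-11.74 to -1.20), Atf7 -4.21 (-11.76 to -1.21), Nmi, an interferon-induced partner of Stat proteins, -3.08 (-7.27 to -0.77), and Anapc16 -3.03 (-7.21 to -0.71). Each of these was carried by 31 to 63 NC cells and 1 to 4 CO cells, so no single cell set the difference. Cfap410 and Hcn2 came from 5 and 6 NC cells. Scd2, a lipid desaturase of oligodendrocytes that they carried at 4893 CPM in NC, was 2176, 1303 and 569 CPM in the NC libraries and 433, 302 and 195 CPM in the CO libraries, -2.05 (-2.46 to -1.66), and 0.02 in T cells free of brain markers. Genes that another class carries at a higher level were also among the most different. Higher in CO were Mctp2 (3.52, 1.46 to 6.38), Fabp7 (2.39, 1.73 to 3.08, or 1.15 without CO replicate 01) and Negr1 (2.92, 1.06 to 5.23, or 1.77 without CO replicate 03), and lower Plin2, Fcnb, Cyyr1 and Tyrobp, from 3 to 9 NC cells, each at 0 in CO and at least 14.3-fold lower. Tyrobp, an adaptor of NK and myeloid receptors, was 132, 89.0 and 16.7 CPM in the NC libraries and 0, 0 and 0 CPM in the CO libraries, from 9 NC cells.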

How the data were processed

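Single cells of rat cerebral hemisphere were measured in 6 droplet libraries, 3 of negative controls (NC) and 3 of carbon monoxide poisoning (CO). The authors deposited, per the labels, 1 matrix per library with the count of UMIs per gene and barcode (15227 genes). Cell Ranger and Rnor_6.0 are named in the submitters' processing notes, and versions and filters are not given in the sources used here. Library numbers 01 to 03 were not used to pair the groups in the main comparison. The deviations of T cell sums of same-numbered libraries correlated at 0.0505, 0.0665 and 0.235 over 3173 genes. Other pairs ran from -0.166 to 0.140, and with 3 libraries per group this does not settle whether the numbers pair.

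T cells were taken by the rule given in the report, and Cd79a was not applied (0 rows used). The members and lists were chosen with earlier results of these data known. Counts were summed per library and group over T cells, scaled by TMM (edgeR 4.0.16, R 4.3.3), and compared for genes with at least 30 UMIs over both groups. Folds of at least 2 were counted among genes with a mean log2 CPM of at least 5. Since libraries of a group differed about as parts of 1 pool, each group counts as 1 sample, and no test is reported. Intervals are exact 95% intervals of counts (scipy 1.17.1), divided by 2.96 for ratios of genes because even counts were over-represented. This departs from the interval planned, which was kept only to rank genes. On simulated data made from these T cells (4515 genes) such intervals covered the true ratio for 96.5% of unchanged, 97% of 2-fold and 97% of 4-fold genes, against 82.9%, 79% and 71% from the counts as deposited. The divisor came from the same T cells, over genes with a mean of 0.02 to 0.2 UMIs per cell. The coverage therefore does not test genes whose UMIs lie mostly in single cells, where intervals may be too narrow. Free RNA and doublets were not removed. Scrublet (scanpy 1.11.5) served as an alternative, with the top 6% of scores taken in the libraries where it marked under 0.5%. Of barcodes shared between the 15 pairs of libraries there was 1, and 0 among T cells.

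Genes named are the 12 highest and 12 lowest ratios by the interval bound nearest 0, among genes at that level, with no overlap between groups and a level of at least 0.25 of that in 7 other cell classes (NK cells were not among them). To these were added the 4 highest and 4 lowest that another class carries, the members of 6 T cell lists, the 4 largest ratios of each other list, and Clcf1, Il6st and Nfkb1. Some genes that this rule names are not reported here. Alternatives were other scalings, depths, cell rules and filters, edgeR and DESeq2 (1.42.0) with libraries as replicates, the replicate block, and leaving out each library.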

Additional observations from a re-analysis of the deposited data

Results flagged for a closer look

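Some T cell results stood out because another class of the same libraries moved the opposite way in every library. The differences between classes were not tested. Ccp110 had a log2 ratio of 2.997 in T cells, while in microglia all 3 CO libraries (4.24, 5.81 and 4.37 CPM) lay below all 3 NC libraries (9.29, 6.12 and 7.96 CPM). Pkp4 stood at -4.19 in T cells, and microglia of every CO library (248 to 256 CPM) lay above those of every NC library (220 to 234 CPM). Scd2 stood at -2.05 in T cells, and its microglial level was 271 to 293 CPM in the CO libraries and 247 to 254 CPM in the NC libraries. That T cell value did not hold in T cells free of brain markers, and oligodendrocytes carried Scd2 at a higher level, as given above.

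The share of T cells was lower in every CO library, and the shares of 3 other classes were higher in every CO library. The CO over NC ratio of the share was 2.58 (1.40 to 4.96) for NK cells, 9.24 (4.21 to 24.0) for neutrophils and 1.35 (1.19 to 1.53) for astrocytes. These differences from the T cells were not tested either.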

How the results depend on the processing

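The T cell share kept its direction under every alternative run, between 0.461 and 0.527 without each library, and was 0.361 thinned to 1000 UMIs. Genes at least 2-fold higher and lower (309 and 410) numbered 333 to 385 and 388 to 480 without each library, 67 and 182 thinned (1537 genes compared), 495 and 1022 with no minimum on the level, and 124 and 254 with at least 100 UMIs. With libraries as replicates and an adjusted p under 0.05, edgeR called 15 higher and 10 lower, DESeq2 57 and 53, and edgeR with the replicate block 34 and 37; not every library correlated best with its own number, and p-values then treat libraries that differ like parts of 1 pool as replicates. At an unadjusted p under 0.05 edgeR gave 480 and 631. At full depth Cd4 was detected in 10% of NC and 11.3% of CO T cells and Cd8a or Cd8b in 27.2% and 40%, against 3.89%, 2.5%, 17.8% and 22.5% thinned to 1000 UMIs. Thinned, the share with Cd8a or Cd8b was 13.7% in NC and 12.5% in CO without cells with NK markers. Thinned and without each library, Cd4 ran from 2.61% to 5.22% in NC and 1.79% to 4.0% in CO, and Cd8a or Cd8b from 16.9% to 18.3% and 20.4% to 25%.

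The median of 17 of 25 lists turned sign in at least 1 of 16 alternatives. Of medians within the SD over the CO libraries, coreceptors and lineage turned to 0.51 and cytokines and chemokines to -0.44 thinned, and proliferation to 0.18 without NC replicate 02. Turns from a median beyond that SD were these. Thinned, cytotoxic effector stood at -0.36, inhibitory receptors at -0.38, glucocorticoid-induced at -0.37, apoptosis and survival at -0.12, sex-linked at -0.67 and cytoplasmic ribosomal proteins at -0.15. Without cells with at least 2 NK markers, cytotoxic effector stood at -0.018 and sex-linked at -0.11. Without cells with over 2% brain marker UMIs, glucocorticoid-induced stood at -0.10 and apoptosis and survival at -0.053. Inhibitory receptors ran from -0.20 to 0.79 without each library and stood at -0.035 without doublets, interferon-stimulated at 0.0083 with all 3 Cd3 genes, and ribosomal proteins at -0.067 with no brain marker. Of genes, with no brain marker Scd2 turned to 0.018, Hk2 to -1.90 and Ccl3 to 0.67. Thinned, Sgk1 turned to -1.24 and Atf3 to 0.14, and without cells with NK markers Ccl3 turned to 0.67 and Atf3 to 0.65. The cause of these turns was not tested. Of 3556 values of 213 named genes 3394 kept their size within the spread of the libraries, 155 moved and 7 turned sign. The alternatives on NK markers, brain marker UMIs, Cd79b and the top cell were chosen after seeing the data. Depth limits what 80 CO T cells can show, which hold 556139 UMIs in sum.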
